A study of Mus musculus with 6 samples.

Results

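The genes of glycolysis and glycogen metabolism were examined in differentiating C2C12 cells, a clonal mouse myoblast line that fuses into contractile myotubes when serum is lowered. The set was given as a list of gene symbols, and each of its 31 members matched 1 row of the 56792 in the deposited count table. It holds 2 glucose transporter genes, 19 genes of glycolytic enzymes and 10 genes of glycogen metabolism. The 3 untreated libraries came from wild-type C2C12 cells after 4 days of differentiation in medium with 2% horse serum. The 3 lenvatinib libraries came from the same line in the same medium with 1 µM lenvatinib, an anticancer inhibitor of the receptor tyrosine kinases of the VEGF and FGF families, PDGF receptor alpha, KIT and RET. Nothing in the labels ties the replicates to separate cultures, and the spread that the p-values rest on could therefore be technical. When the drug was added, and whether untreated cells received its solvent, is not stated in the labels.

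Glycolysis converts glucose to pyruvate in the cytosol and yields ATP and NADH, and lactate dehydrogenase turns pyruvate into lactate and restores NAD. Muscle stores glucose as glycogen, which glycogen synthase and branching enzyme build and glycogen phosphorylase breaks down to fuel contraction. Several steps have isoforms encoded by separate genes, and differentiating muscle is known to turn on the muscle forms such as beta enolase and muscle phosphoglycerate mutase.

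Most glycolytic genes that changed rose slightly with lenvatinib, along the pathway from glucose phosphate isomerase to lactate dehydrogenase A, while hexokinase 2 and glycogen synthase fell. All 31 members had enough counts for a test, and 15 rose, 2 fell and 14 did not pass an adjusted p of 0.05 (edgeR quasi-likelihood test, adjusted by Benjamini-Hochberg over 14989 rows). Over all rows tested 28.2% passed, 13.3% higher and 14.9% lower. Members are abundant transcripts, which pass more easily. Of the 24 members with a mean of at least 50 CPM (the count scaled to the library total and its TMM factor), 15 passed, against 40.4% of the 4510 tested rows at that level, where 19.9% were higher and 20.5% lower. Among glycolytic enzymes 12 of 19 rose and 1 fell, with a median log2 fold change of 0.11. Among glycogen genes 2 of 10 rose and 1 fell, with a median of 0.06, beside 0.003 over all tested rows. The rises were 1.07- to 1.37-fold, with a median of 1.15-fold, and the falls 1.12- and 1.15-fold. The 3 lenvatinib libraries lay above the 3 untreated ones in 19 of the 31 members and below them in 3. Groups were apart in 40.1% of tested rows (19.6% higher, 20.5% lower) and in 51.8% of those with at least 50 CPM (25.9% higher, 25.9% lower). All 17 members that passed had groups apart, but they were picked by p from the same 6 libraries. The groups were apart in 5 of the 14 members that did not pass as well. Fold changes are given as log2 of lenvatinib over untreated with the standard error (SE) of the fit, and the 6 levels of a gene as CPM, untreated libraries before lenvatinib libraries.

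Library totals ran from 24566768 to 32406563 counts, and the members held 0.949 to 0.981% of the counts in untreated and 1.02% in each lenvatinib library. All 10 skeletal muscle markers checked (Myod1, Myog, Des, Ckm, Myh3, Mymk, Tnnt3, Ttn, Actn2 and Chrna1) were tested, and 6 rose and 2 fell. Of all tested rows 28.2% passed (13.3% higher, 14.9% lower), and 40.4% of those with at least 50 CPM. The summed level of the 10 markers was 16136 to 16972 CPM in untreated and 16669.8 to 17236 CPM in lenvatinib libraries. Myog, the factor of terminal differentiation, rose by 0.28 ± 0.03 (adjusted p = 6.51e-12), Ckm by 0.15 ± 0.03 and Myh3 by 0.10 ± 0.02. Myod1, Mymk and Chrna1 rose as well. Des fell (-0.19 ± 0.02, adjusted p = 1.02e-08), as did Actn2 (-0.15 ± 0.03, adjusted p = 0.000175), and Tnnt3 and Ttn did not pass. Of 4 fibroblast markers 3 were tested, 1 of them higher (Col1a1) and 1 lower (Pdgfra), and their summed level was 550.2 to 578 CPM without and 640.2 to 719 CPM with lenvatinib. Sums of 4 endothelial markers were 0.470 to 0.661 and 0.768 to 1.44 CPM, of 4 macrophage markers 0.263 to 1.25 and 0.573 to 0.804 CPM (Adgre1 at 0 counts), and of 4 cardiomyocyte markers 13.5 to 15.1 and 11.5 to 14.3 CPM (Myl7 at 0 counts). Sums of 4 adipocyte markers were at most 0.104 CPM (Plin1 at 0 counts) and of 4 hepatocyte markers at most 0.0376 CPM (Alb, Ttr and G6pc at 0 counts). The part of muscle or fibroblast content in the results that follow was not tested, and in bulk RNA a change in the number of cells of a type cannot be told apart from a change in RNA per cell.

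Promoter sequence is shown for 4 members, Ldha and Pgk1, which rose, Hk2, which fell, and Pgam2, the member whose window held a MEF2 motif. The Ldha window is the one of its 2 RefSeq starts that holds such matches. Each is the 250 bases before the gene start, 5′ to 3′ on the gene's strand, from RefSeq on GRCm38.p6. Capitals mark ACGTG on either strand (the core of the hypoxia response element), the E-box CAGCTG and the MEF2 consensus.
Ldha, chr7:46845554-46845803, plus strand: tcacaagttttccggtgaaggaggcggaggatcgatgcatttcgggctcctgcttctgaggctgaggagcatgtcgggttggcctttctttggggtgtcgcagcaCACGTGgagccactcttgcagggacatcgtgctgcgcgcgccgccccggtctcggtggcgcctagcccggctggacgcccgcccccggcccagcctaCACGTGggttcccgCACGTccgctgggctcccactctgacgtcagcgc
Pgk1, chrX:106186850-106187099, plus strand: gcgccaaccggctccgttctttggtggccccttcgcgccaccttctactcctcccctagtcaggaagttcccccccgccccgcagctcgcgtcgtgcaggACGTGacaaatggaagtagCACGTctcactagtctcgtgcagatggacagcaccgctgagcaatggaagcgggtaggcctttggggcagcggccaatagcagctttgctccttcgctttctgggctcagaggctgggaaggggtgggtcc
Hk2, chr6:82774455-82774704, minus strand: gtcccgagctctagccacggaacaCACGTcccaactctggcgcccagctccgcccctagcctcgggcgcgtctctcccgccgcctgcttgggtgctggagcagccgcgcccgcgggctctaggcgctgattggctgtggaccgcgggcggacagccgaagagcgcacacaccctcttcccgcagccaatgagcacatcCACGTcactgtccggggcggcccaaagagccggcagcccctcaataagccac
Pgam2, chr11:5803797-5804046, minus strand: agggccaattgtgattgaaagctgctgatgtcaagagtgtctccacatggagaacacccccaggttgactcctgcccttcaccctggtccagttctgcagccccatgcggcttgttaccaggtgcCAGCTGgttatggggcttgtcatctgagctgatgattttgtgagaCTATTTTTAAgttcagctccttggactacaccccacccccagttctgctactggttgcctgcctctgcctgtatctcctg
The E-box CACGTG contains ACGTG on both strands, and in Ldha it occurred in 2 places, so that the window held 5 matches to ACGTG over both strands. Of the 30 members found in the RefSeq table (Slc2a4 was not among them), 14 held ACGTG in such a window, 46.7%. It was in 25.2% of the 10152 tested genes found there and in 18.5% of all 27025 genes of the table; a gene with several starts counted if any window held it. By call, 8 of the 15 members that rose, 1 of the 2 that fell and 5 of 13 that did not pass held it. CAGCTG was in 7 members (23.3%, against 14.6% of tested genes) and the MEF2 consensus in 1 member (3.33%, against 1.63%). CACGTG was in 3 members (Pfkm, Pfkfb3 and Ldha; 10.0%, against 9.88%) and CCAAT, left in lower case, in 13 (43.3%, against 40.9%). All were searched on both strands. These are matches of letters and not binding sites.

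**Figure D1:**
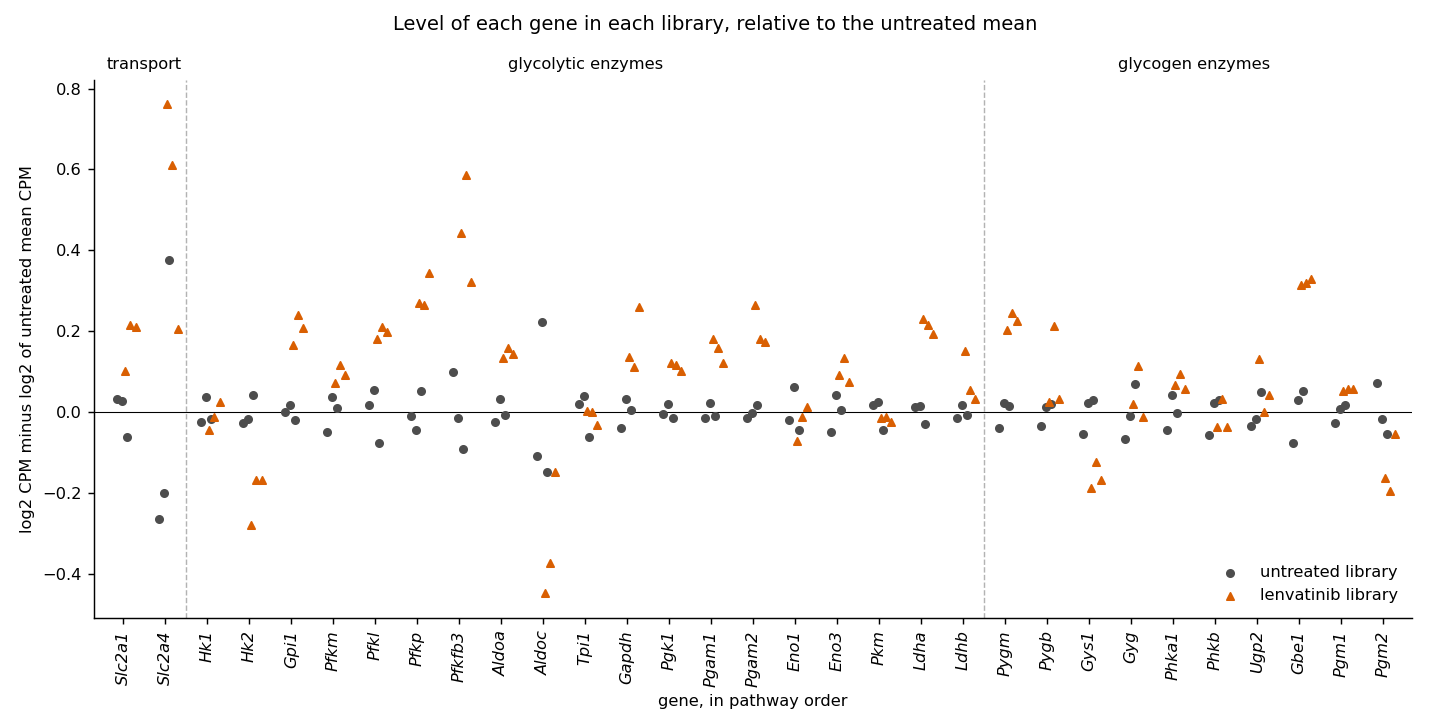
Level of each of the 31 genes in each library, as log2 CPM minus the log2 of the untreated mean; circles are the 3 untreated and triangles the 3 lenvatinib libraries, and genes stand in pathway order from left to right. Triangles lie above all circles in the 15 genes that rose, below them in Hk2 and Gys1, and mixed with them in genes such as Hk1, Tpi1, Eno1 and Pkm.

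Glucose enters through transporters of the Slc2a family. Slc2a1, the glucose transporter of most growing cells (chromosome 4, 118965908 to 118995180 in the deposited table), was at 55.4, 55.2 and 51.9 CPM in untreated and 58.1, 62.9 and 62.7 CPM in lenvatinib libraries. It rose by 0.18 ± 0.04 (adjusted p = 0.00114), and the groups did not overlap. Slc2a4, the insulin-responsive transporter of mature muscle and fat, was barely detected, at 1.09, 1.14 and 1.70 against 2.22, 2.00 and 1.51 CPM. Its groups overlapped and it did not pass (0.52 ± 0.23, adjusted p = 0.0924), with a 95% interval of 0.05 to 0.98. With the third untreated library left out, the highest of its group, it passed (0.76, adjusted p = 0.0325). Leaving out the third treated library, the lowest of its group, did the same (0.68, adjusted p = 0.0422).

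Hexokinase traps glucose in the cell as glucose phosphate. Hk2, the hexokinase of muscle and other insulin-sensitive tissue (chromosome 6, 82702006 to 82751435), was at 108, 109 and 114 CPM in untreated and 91.2, 98.4 and 98.5 CPM in lenvatinib libraries. All treated libraries were lower, and it was the one of the 19 listed glycolytic members that fell (-0.20 ± 0.04, adjusted p = 1.61e-05), a decrease of 13.1%. Hk1, the ubiquitous form, did not pass, at 185, 193 and 186 against 182, 187 and 192 CPM (adjusted p = 0.873). Its 95% interval was -0.07 to 0.05.

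The next steps were higher. Gpi1, which converts glucose phosphate to fructose phosphate, was at 464, 469 and 458 CPM without and 519.8, 548 and 536 CPM with lenvatinib, and rose by 0.21 ± 0.03 (adjusted p = 6.72e-08). Phosphofructokinase commits sugar to glycolysis, and all 3 of its genes rose. The muscle form Pfkm was at 616, 654 and 642 against 670.2, 692 and 679 CPM (0.09 ± 0.03, adjusted p = 0.00656); its groups were apart but close. The row of Pfkm shares 1156 bases with Senp1 on the other strand, which holds 4.89% as many counts. Without the first untreated library, the lowest, Pfkm no longer passed (0.07, adjusted p = 0.0776). The liver form Pfkl was at 81.8, 83.9 and 76.6 against 91.6, 93.5 and 92.6 CPM (0.20 ± 0.04, adjusted p = 4.26e-05). The platelet form Pfkp was at 71.9, 70.2 and 75.0 against 87.2, 86.9 and 91.9 CPM, and rose by 22.6% (0.29 ± 0.04, adjusted p = 3.29e-08). The row of Pfkp shares 748 bases with Pitrm1 on the other strand, which holds 109.4% as many counts. No source used here gives the strand setting, so their reads cannot be told apart there; Pitrm1 itself was at 89.5 and 87.0 CPM and did not pass (adjusted p = 0.443). Pfkfb3, which makes the sugar bisphosphate that activates phosphofructokinase, is a low transcript. It was at 5.64, 5.21 and 4.94 against 7.15, 7.90 and 6.58 CPM and rose by 36.5% (0.45 ± 0.12, adjusted p = 0.00229), the largest rise among the members that passed.

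Below phosphofructokinase, each step from aldolase to lactate dehydrogenase had a gene that rose, except those of Tpi1 and Pkm. Aldolase A, Aldoa, splits the sugar bisphosphate and was at 1376, 1432 and 1394 CPM in untreated and 1538, 1564 and 1547 CPM in lenvatinib libraries (0.15 ± 0.02, adjusted p = 5.72e-06). The groups were well apart. The brain form Aldoc had only 28 to 46 counts per library (1.39 to 1.80 against 1.13 to 1.39 CPM) and did not pass (adjusted p = 0.373). Tpi1, which interconverts the triose phosphates, was at 537, 544 and 507 against 531, 529.5 and 518 CPM, with an interval of -0.07 to 0.05 (adjusted p = 0.867). Pgk1, which makes ATP from bisphosphoglycerate, was at 402, 408 and 399 against 438, 437 and 432 CPM and rose by 0.11 ± 0.03 (adjusted p = 0.000846). Both phosphoglycerate mutases rose. The widely expressed Pgam1 was at 256, 263 and 257 against 293, 288 and 281 CPM (0.15 ± 0.03, adjusted p = 2.83e-05). The muscle form Pgam2, whose promoter is shown above, was at 88.9, 89.7 and 90.9 against 108, 102 and 101 CPM (0.21 ± 0.04, adjusted p = 9.49e-06).

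The end of the pathway differed by gene. Eno3, the muscle enolase (chromosome 11, 70548028 to 70553339), was at 1055, 1123 and 1096 CPM in untreated and 1162, 1198 and 1149 CPM in lenvatinib libraries and rose by 0.10 ± 0.03 (adjusted p = 0.00256). Its ubiquitous counterpart Eno1 did not pass, at 679, 719 and 668 against 655, 683 and 695 CPM (adjusted p = 0.617). Pkm, pyruvate kinase, which makes ATP and pyruvate, was at 1509.6, 1519.5 and 1447 against 1478, 1479 and 1467 CPM. The treated libraries lay within the range of the untreated ones, and the 95% interval was -0.07 to 0.03 (adjusted p = 0.667). The table has 1 row for Pkm, so its muscle and embryonic splice forms were not separated. Ldha, the lactate dehydrogenase subunit of fast muscle (chromosome 7, 46490899 to 46505051), was at 560.4, 561 and 545 against 651, 645 and 635 CPM. It rose by 15.9% (0.21 ± 0.03, adjusted p = 1.5e-08), with every treated library higher by more than the spread within a group. The heart subunit Ldhb was near 18 CPM (18.0, 18.4 and 18.1 against 20.2, 18.9 and 18.6 CPM) and did not pass (0.08 ± 0.07, adjusted p = 0.399).

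**Figure D2:**
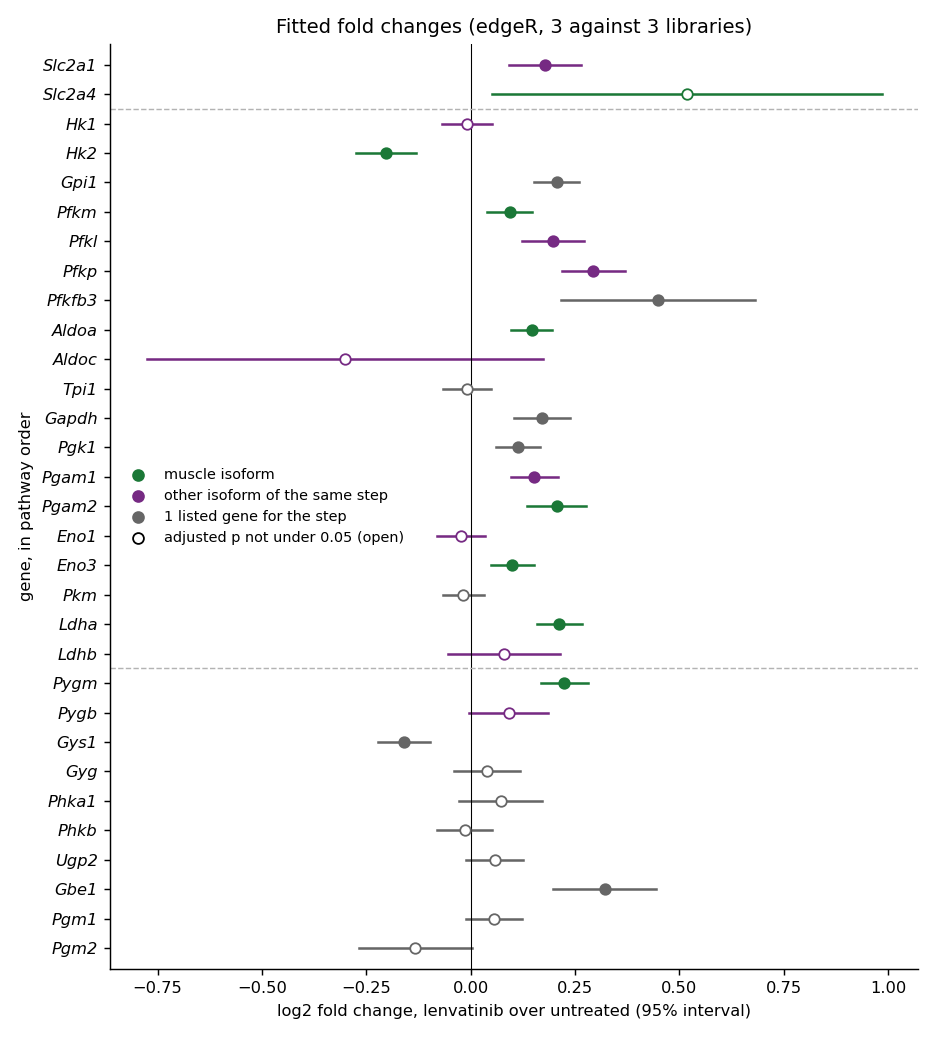
Fitted log2 fold change of each gene, lenvatinib over untreated, with its 95% interval; green marks muscle isoforms, purple the other isoforms of the same steps and grey genes listed alone for their step, and open circles did not pass an adjusted p of 0.05. Intervals of Pkm, Tpi1, Eno1 and Hk1 are as narrow as those of genes that rose but span 0, while those of Slc2a4 and Aldoc are wide.

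Gapdh needed its copies to be read. The mouse genome holds many processed pseudogenes of Gapdh, and most counts of this sequence in the deposited table lay in rows of such copies. The row of Gapdh had 10513, 10603 and 11717 counts in untreated and 11045, 10731 and 15733 counts in lenvatinib libraries. A search of GENCODE M21 transcripts found 74 rows at least 95% identical to Gapdh over at least 60% of their length, 72 of them with counts. These rows held 280807, 292989 and 311772 counts in untreated and 300059, 302098 and 395459 counts in lenvatinib libraries, 96.2 to 96.6% of the sum. Gm13394, a pseudogene 99.9% identical to Gapdh, alone had 37645 counts in the first untreated library. From its own row Gapdh was at 395, 416 and 407 against 446, 439 and 486 CPM (0.17 ± 0.03, adjusted p = 0.000137), and the third lenvatinib library stood above the other treated ones. With the copies added it was at 10950.0, 11892 and 11239 against 12587, 12799.9 and 12707 CPM, and that library no longer stood out. The rise was 0.16 ± 0.02 (adjusted p = 4.99e-06). If each read was counted once, Gapdh with its copies was the most abundant member. From its own row, at 98.3 CPM per kilobase in untreated cells, it ranked below Eno3, Aldoa, Tpi1, Pgk1, Pkm, Ldha, Pgam1, Eno1, Pfkm and Pgam2. The row of Gapdh also shares 68 bases with Iffo1 on the other strand. No source used here says whether a read could be counted in more than 1 row, and this was not tested. Reads counted in several rows would enter the share in copies and the sums with copies repeatedly. The SE and adjusted p from those sums would then not hold.

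Other members had a smaller share of counts in rows of copies. Of Eno1-like counts 48.3 to 49.2% lay in 3 other rows (Eno1b, Gm4735 and Gm5855), and with them Eno1 again did not pass (-0.02 ± 0.03, adjusted p = 0.554). For Pgk1 the share was 24.5 to 26.7% over 4 rows, and its rise was 0.14 ± 0.03 with them. For Pgam1 it was 16.6 to 17.8% in Pgam1-ps2 (0.16 ± 0.03 with it). For Pkm, Tpi1, Ldhb, Gpi1 and Ldha it was at most 3.62%. Adding the copies changed no member's call. For the remaining members the search found no such copy in the table. Pgk1-rs7 and Gm5537, both 100% identical to Pgk1, had similar counts in every library. Pgk1-rs7 had 1786, 1757 and 1958 in untreated and 1945, 1888 and 2606 in lenvatinib libraries. Gm5537 had 1679, 1653 and 1855 against 1829, 1774 and 2465. Whether the same reads were counted in both rows was not tested.

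**Figure D3:**
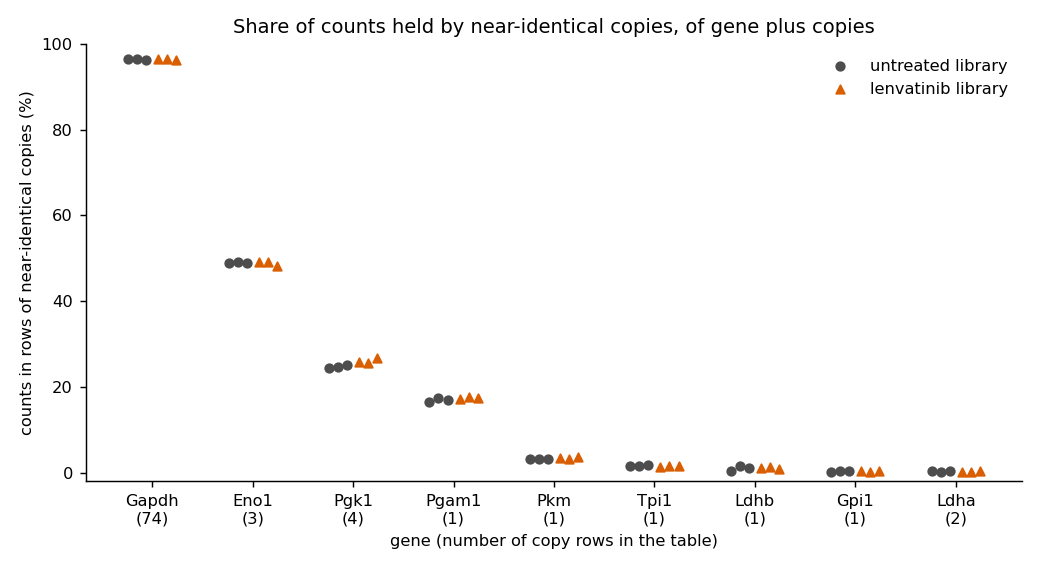
Percent of counts that lay in rows of near-identical copies, out of the gene's own row plus its copies, for the 9 members with such rows; circles are untreated and triangles lenvatinib libraries, and the number of copy rows stands under each name. Gapdh lies at 96.2 to 96.6% and Eno1 at 48.3 to 49.2% in all 6 libraries, while Pkm and the genes to its right lie under 4%.

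Levels between genes were compared per kilobase of the deposited feature length. In untreated cells Eno3 led the gene rows at 628 CPM per kilobase, ahead of Aldoa at 301, Tpi1 at 192 and Pgk1 at 180. This order depends on the deposited lengths, such as 1739 bases for Eno3, 4651 for Aldoa and 8363 for Pkm. Whether these match the transcripts expressed here was not tested. By mean CPM in untreated cells Pkm, at 1492, and Aldoa, at 1401, stood above Eno3, at 1091. With copies, Gapdh came to 2750 and Eno1 to 247 CPM per kilobase, levels that hold only if each read was counted once. Slc2a4, Aldoc and Pfkfb3 were lowest, at 0.369, 0.472 and 0.696 CPM per kilobase. Among glycogen genes Pygm was highest at 87.4, followed by Ugp2 at 43.5 and Gys1 at 38.3 CPM per kilobase.

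The 3 glycogen genes that passed lay on both the degrading and the building side. Pygm, muscle glycogen phosphorylase, which releases glucose units from glycogen (chromosome 19, 6434429 to 6448489), was at 274, 286 and 284 CPM in untreated and 324, 334 and 329 CPM in lenvatinib libraries. It rose by 16.9% (0.23 ± 0.03, adjusted p = 1.29e-08), and the groups were far apart for their spread. Gbe1, the branching enzyme, was at 19.3, 20.8 and 21.1 against 25.3, 25.4 and 25.6 CPM and rose by 24.9% (0.32 ± 0.06, adjusted p = 5.96e-05). Gys1, the muscle glycogen synthase that lengthens the chains (chromosome 7, 45084268 to 45106043), was at 185, 195 and 196 against 168, 176 and 171 CPM. It fell by 0.16 on the log2 scale (SE 0.03, adjusted p = 5.79e-05), and all treated libraries lay below all untreated ones. The row of Gys1 shares 3253 bases of span with Ruvbl2 on the other strand, which holds 18.6% as many counts and did not pass (adjusted p = 0.723). Whether glycolytic and glycogen genes differed in how often they were called was not tested.

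The other 7 glycogen genes did not pass. Pygb, the brain phosphorylase, was at 48.4 to 50.2 against 50.4, 57.4 and 50.7 CPM (0.09 ± 0.05, adjusted p = 0.153), and the second lenvatinib library stood above the rest. Gyg, glycogenin, which primes new glycogen, was at 81.7 to 89.8 without and 84.8 to 92.6 CPM with lenvatinib (adjusted p = 0.501). Of the phosphorylase kinase subunits that activate phosphorylase, Phka1, the muscle alpha subunit, was at 35.7 to 37.9 and 38.3 to 39.3 CPM (adjusted p = 0.298), and Phkb, the beta subunit, at 133 to 141 and 134 to 141 CPM (adjusted p = 0.802). Ugp2, which makes the UDP-glucose that glycogen synthase uses, was at 139.9 to 148 and 143 to 157 CPM (adjusted p = 0.21). The phosphoglucomutase Pgm1 was at 103 to 106 and 109 CPM in each treated library (adjusted p = 0.218), and Pgm2, a related phosphopentomutase, at 19.4 to 21.2 and 17.6 to 19.4 CPM (adjusted p = 0.146). The 95% interval of the log2 fold change was -0.01 to 0.13 for Ugp2, -0.01 to 0.12 for Pgm1, -0.08 to 0.05 for Phkb and -0.27 to 0.003 for Pgm2.

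Muscle isoforms were set against the other isoforms of the same steps. Of 8 muscle isoforms (Slc2a4, Hk2, Pfkm, Aldoa, Pgam2, Eno3, Ldha and Pygm) 6 rose and 1 fell, with a median log2 fold change of 0.18. Of 9 others 4 rose (Slc2a1, Pfkl, Pfkp and Pgam1) and 5 did not pass, with a median of 0.09. Over all rows tested 28.2% passed, and 40.4% of those with at least 50 CPM. The difference between the isoform groups in calls or in median was not tested. The ratio within each library was compared for the 8 steps with an exact two-sided permutation test over the 6 libraries, which cannot go below p = 0.1 in this design. The groups were apart in 6 of the 8 ratios, each at an exact permutation p = 0.1 (0.133 adjusted over the 8), so none could pass. Among single rows, groups were apart in 40.1% of those tested and in 51.8% of those with at least 50 CPM. No such share was computed for ratios of other genes. The ratio of the muscle form was higher with lenvatinib in enolase, lactate dehydrogenase, phosphorylase and aldolase, and lower in hexokinase and phosphofructokinase. The percent shares below depend on the deposited lengths, 1739 bases for Eno3 and 5467 for Eno1, and 840 for Pgam2 and 1982 for Pgam1. Before division by length, the untreated means were 1091 CPM for Eno3 and 688 for Eno1, and 89.8 for Pgam2 and 259 for Pgam1. Hk2 made up 44.2, 43.3 and 45.2% of the hexokinase signal per kilobase in untreated and 40.3, 41.6 and 41.0% in lenvatinib libraries, a ratio 1.14-fold lower. Pfkm was 86.4, 87.0 and 87.2% of phosphofructokinase without and 85.7, 86.0 and 85.6% with the drug, 1.1-fold lower in ratio. Eno3 was 83.3 ± 0.418% and 84.4 ± 0.5% (SD, n = 3) of enolase, 1.09-fold higher in ratio. With the copies of Eno1 added these means were 71.8 and 73.5%, and the ratio was again 1.09-fold higher. Ldha was 92.7 ± 0.122% and 93.3 ± 0.212% of lactate dehydrogenase, and Pygm 89.5 ± 0.0519% and 90.3 ± 0.54% of phosphorylase. The aldolase ratio rests on the few counts of Aldoc. Pgam2, at 45.0 ± 0.458% and 46.0 ± 0.538% of phosphoglycerate mutase, and Slc2a4, at 2.35 ± 0.689% and 3.01 ± 0.658% of the transporter pair, overlapped between groups (exact permutation p = 0.2 and 0.3).

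**Figure D4:**
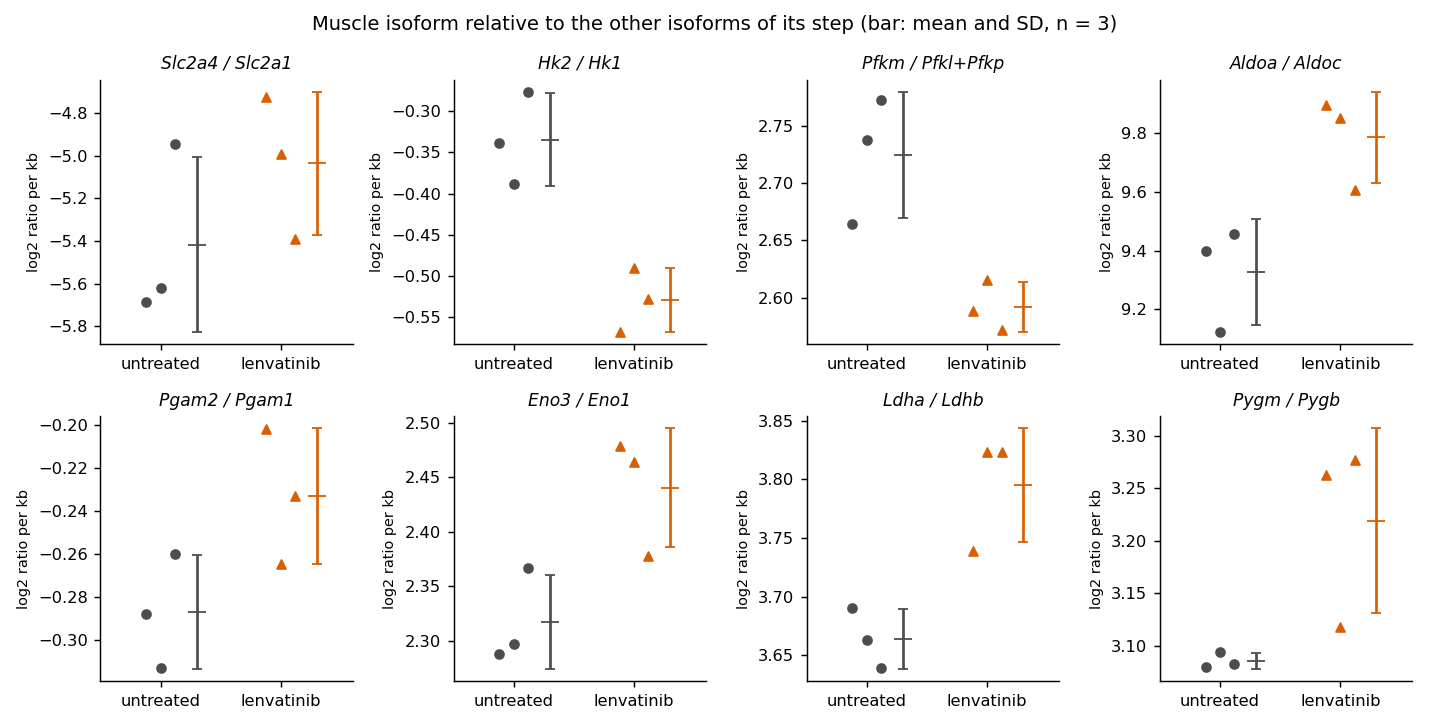
Log2 ratio of the muscle isoform to the other isoforms of its step, from levels per kilobase, in each library; circles are untreated and triangles lenvatinib libraries, bars show mean and SD (n = 3), and each panel has its own scale. The groups are apart in 6 panels, lower with lenvatinib for Hk2 and Pfkm and higher for Aldoa, Eno3, Ldha and Pygm.

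Neighbouring pathways were read from gene lists that were chosen with earlier results of these data known. The share of all tested rows that passed was 28.2% (13.3% higher, 14.9% lower), and 40.4% of those with at least 50 CPM passed. Of 23 further glycolytic and gluconeogenic genes 9 had enough counts, of which 4 rose and 1 fell. Pck2, the mitochondrial enzyme that makes phosphoenolpyruvate, rose by 0.31 and Tigar, a phosphatase of the activating sugar bisphosphate, by 0.37, and Eno2, the neuronal enolase, fell (-0.48 ± 0.08, adjusted p = 2.85e-06). Of 20 further glycogen genes 14 were tested; 2 rose and 1 fell. Stbd1, which tethers glycogen to membranes, was at 36.2, 40.2 and 35.2 against 52.6, 51.5 and 51.8 CPM (0.48 ± 0.05, adjusted p = 1.18e-10). Epm2a, the glycogen phosphatase laforin, rose by 0.53. Ppp1r3a, the muscle subunit that brings protein phosphatase to glycogen and so activates glycogen synthase, fell from 3.87, 4.86 and 4.94 to 2.14, 2.86 and 2.56 CPM (-0.85 ± 0.15, adjusted p = 3e-05).

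At the exits of glycolysis, 5 of 7 tested genes of lactate transport and the pyruvate dehydrogenase kinases rose and 1 fell. Across all tested rows 28.2% passed, 13.3% higher and 14.9% lower, and 40.4% of those with at least 50 CPM passed. The kinases, which act in the mitochondrial matrix and block the conversion of pyruvate to acetyl-CoA, included Pdk1 (42.5, 45.9 and 43.3 against 57.7, 56.1 and 53.8 CPM; 0.35 ± 0.04, adjusted p = 5.11e-08), Pdk3 (0.26) and Pdk4 (0.25). Of the lactate transporters, Slc16a3 rose (0.16, adjusted p = 0.019) and Slc16a1 fell (-0.18 ± 0.04, adjusted p = 0.000175), and Bsg, the chaperone that brings both to the cell surface, rose (0.09, adjusted p = 0.00943). Slc16a3 and Bsg were named after their values were seen. Of 7 genes of the glycerol phosphate and malate-aspartate shuttles, which reoxidize NADH, 3 rose and 1 fell. Mdh2 rose by 0.17, Gpd1 by 0.69 and Mdh1 by 0.11, and Gpd2 fell (-0.26). The pentose phosphate list had 2 of 8 higher and 1 lower: Taldo1 and Rpe rose by 0.10 and 0.14, and Tkt fell (-0.19). In the hexosamine and UDP-sugar branch 1 of 6 rose and 1 fell, the latter Ugdh, which oxidizes UDP-glucose (-0.47 ± 0.04, adjusted p = 5.63e-14). Of 6 tested further transporters Slc2a13, a myo-inositol transporter, rose by 1.11 and Slc2a6 fell (-0.36).

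Hypoxia-inducible factor (HIF) drives many glycolytic genes under low oxygen, so its other genes were listed too. Of 20 HIF factors and targets outside glycolysis 7 rose, 3 fell and 10 did not pass, with a median of 0.15. Among all tested rows 28.2% passed, 13.3% higher and 14.9% lower. Several genes of this list are abundant, and of tested rows with at least 50 CPM 40.4% passed, 19.9% higher and 20.5% lower. The 4 with the smallest p follow. Ndrg1 rose from 110, 109 and 107 to 157, 157 and 159 CPM (0.53 ± 0.03, adjusted p = 1.5e-17), P4ha1, a collagen prolyl hydroxylase, by 0.33 and the oxygen sensor Egln1 by 0.35. Egln3, another oxygen sensor and HIF target, went the other way, from 158, 156 and 167 to 123, 126 and 115 CPM (-0.41 ± 0.03, adjusted p = 2.24e-12). Of 9 tested genes in a list of glucose sensing factors, subunits of the kinase AMPK and related regulators, 1 rose and 2 fell. Tbc1d1, a regulator of glucose transporter traffic, rose by 0.15. The glucose-responsive Txnip fell (-0.36), as did the growth factor-induced Myc (-0.24). These lists describe the same 6 libraries, and no list was tested as a set.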

How the data were processed

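RNA sequencing of 6 C2C12 libraries, 3 untreated and 3 with lenvatinib, was deposited as 1 table of whole-number counts per gene row, made by the authors and not normalized. Per the labels' protocols reads were aligned with Hisat2 2.0.1, and the submitters' processing notes name HTSeq 0.6.1 and mm10. No source used here gives filters or the strand setting. Gene positions are printed as deposited; they differ from those of GENCODE M21 on GRCm38, so they carry no build and were not joined to it. The table's feature length, in bases, as deposited, served for levels per kilobase.

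Groups came from the sample titles. Rows were kept by filterByExpr of edgeR 4.0.16 (minimum count 10, minimum total 15), which left 14989 of 56792, and tested in R 4.3.3 with TMM factors, glmQLFit with robust estimation and glmQLFTest, adjusted by Benjamini-Hochberg at 0.05. The SE was derived from the F statistic. The fit was tested on simulated data. Chi-square per degree of freedom between replicates was 2.78 to 5.6, so none repeated another. A count of 3 equals 0.0927 to 0.123 CPM. Copies were sought with blastn 2.17.0 (identity 95%, 60% of the copy's length, same strand). Alternatives were other scalings and filters, DESeq2 1.42.0, limma-voom (limma 3.58.1), a replicate block, leaving out each library and, added after seeing the data, adding the copies. All members and all skeletal muscle markers were named, and of other lists up to 4 genes that passed, by smallest p. Members and lists were chosen with earlier results of these data known.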

Additional observations from a re-analysis of the deposited data

How the results depend on the processing

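All 14 alternatives gave counts of calls within 1.5 times those reported. Over all rows 3319 to 4276 passed, against 4228; leaving out 1 library gave 3618 to 3797. Of glycolytic enzymes 12 or 13 passed, of glycogen genes 3 in each alternative, of muscle isoforms 6 to 8 and of the other isoforms 4. Of the 31 fold changes under 14 alternatives, 431 values kept direction and side of the threshold and 3 did not: Pfkm without the first untreated library (0.07, adjusted p = 0.0776), and Slc2a4 without the third untreated (0.763) or the third lenvatinib library (0.678), both now past it.

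The counts showed no pairing by the replicate numbers in the titles. The deviations of same-numbered libraries correlated at 0.0191, -0.0795 and -0.0101 over 10002 genes. Such values cannot tell whether the cultures were set up in pairs. With the number as a replicate block 4134 rows passed, and it changed no member's call (Hk2 at -0.204, Ldha at 0.213). Slc2a4 and Aldoc had 28 to 55 counts per library, the fewest among the members, and the widest 95% intervals among them; the part of depth was not tested.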
